A study of Homo sapiens with 6 samples.

Results

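ZIC2-bound regions that lie in the 7 KRAB zinc-finger gene clusters of chromosome 19 are described here. They were chosen by position alone: a region belonged to a cluster when its midpoint lay inside it, whichever cells it was called in. Of the 16077 distinct regions called in the study, 123 lay in the clusters, 944 on the rest of chromosome 19 and 15010 on other chromosomes and contigs. All positions are on hg19. In order along the chromosome, cluster 1 runs from 9.2 to 9.9 Mb, cluster 2 from 11.7 to 12.7 Mb, cluster 3 from 20.0 to 24.3 Mb, cluster 4 from 36.6 to 38.4 Mb, cluster 5 from 44.3 to 45.0 Mb, cluster 6 from 52.3 to 54.0 Mb and cluster 7 from 56.2 to 59.1 Mb. Clusters 1 to 3 are on the short arm and clusters 4 to 7 on the long arm.

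ZIC2 was mapped by CUT&Tag, in which an antibody brings a transposase to the bound protein so that nearby DNA is cut and tagged, in the H1 (WA01) line of human embryonic stem cells. The 2 groups were wild-type cells (WT) and cells in which ZNF263 had been deleted with Cas9 (KO, labelled a homogeneous ZNF263 knockout), with 2 anti-ZIC2 libraries and 1 rabbit IgG library each. The labels do not say whether the libraries of a group came from separate cultures, or whether the knockout is 1 clone. A single list of regions per genotype was used, with positions only: no height, read count or score, and no values per library, so depth is unknown, the values below carry no replicate error and genotypes could not be tested against each other. A region absent from a list was not called there, and its signal was not measured.

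KRAB zinc-finger proteins form the largest family of human transcription factors. Each binds DNA through a row of C2H2 zinc fingers, and its KRAB domain recruits the corepressor TRIM28, which brings in enzymes and proteins of heterochromatin, so the family is best known for silencing transposable elements. The genes arose by repeated tandem duplication and stand side by side in clusters, where gene bodies often carry the repressive mark H3K9me3 while many promoters are active. ZNF263, the protein removed in the knockout, is itself a C2H2 zinc-finger protein with a KRAB domain, and ZIC2 is a C2H2 zinc-finger factor of pluripotent and early neural cells with no KRAB domain.

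The gene table at hand is of another build (RefSeq, GRCh38.p14), so it was used for names and gene order only. By symbol, 265 of the 1451 protein-coding genes of chromosome 19 in it belong to zinc-finger families (names that start with ZNF, ZFP, ZSCAN, ZIM, ZIK or ZKSCAN), which is 46.6% of the 569 such genes in the genome. Of the 265, 241 stand next to another one, and 213 are in 18 unbroken runs of at least 5 genes, the longest of 27. TRIM28 itself is among the last genes of this chromosome, where the order is ZNF324, ZNF446, SLC27A5, ZBTB45, TRIM28, CHMP2A, UBE2M and MZF1. Which gene each ZIC2 region lies at, and the sequences of the regions, were not analysed here.

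The clusters were poor in ZIC2 regions for their chromosome. They held 123 regions in 13.1 Mb, or 9.39 per Mb (exact Poisson 95% interval 7.80 to 11.2). The rest of chromosome 19, up to its last region, held 944 in 46 Mb, or 20.5 per Mb (19.2 to 21.9). The clusters thus had 0.458 times the density of the rest (exact 95% interval 0.376 to 0.553). These intervals hold counting error alone, with each region taken as independent. The treatment of reads that align to several places is not known. How much of the clusters and of the rest could yield a called region was not measured, so a low density here is one of called regions. Bound length differed more than the number of regions, with 3236 bp of region per Mb in the clusters and 8211 bp per Mb outside.

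Density differed widely among the clusters. It was highest in cluster 2, with 19 regions in 1 Mb (95% interval 11.4 to 29.7 per Mb), cluster 7, with 45 regions or 15.5 per Mb (11.3 to 20.8), and cluster 6, with 26 regions or 15.3 per Mb (9.99 to 22.4). Their intervals overlap, and differences among these clusters were not tested, so no ranking is made. Cluster 4 held 16 regions (8.89 per Mb, 5.08 to 14.4) and cluster 1 held 4 (5.71 per Mb, 1.56 to 14.6). Cluster 3, the longest at 4.3 Mb and the one beside the centromere, held 13 regions, or 3.02 per Mb (1.61 to 5.17), and its interval lies below those of clusters 2, 6 and 7. Cluster 5 held 0 regions in 0.7 Mb, which allows up to 5.27 per Mb. Without cluster 3 the density of the others was 12.5 per Mb, and the rest of the chromosome was then 1.64 times as dense as the clusters in place of 2.19 times.

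**Figure D1:**
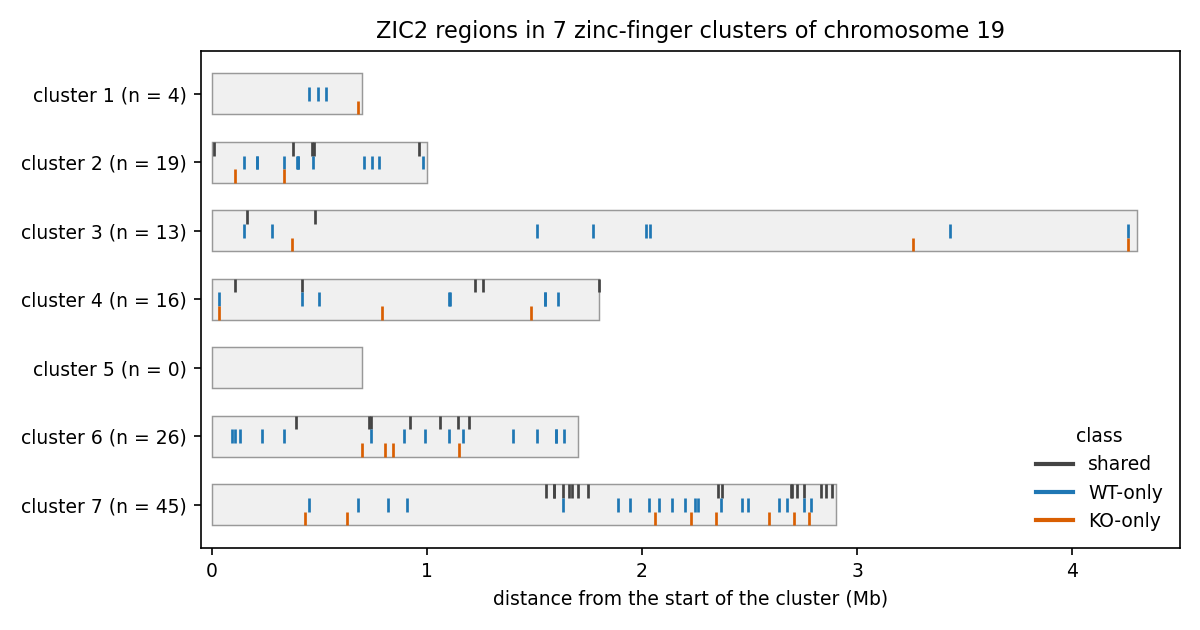
Each bar is 1 cluster drawn to scale from its start (x axis, Mb), and each tick is 1 distinct ZIC2 region, with shared regions in the top lane, WT-only in the middle and KO-only at the bottom. Cluster 5 has no tick, and cluster 3 has 13 ticks in 4.3 Mb, with long empty stretches.

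ZIC2 regions were denser just outside the clusters. In the 500 kb on either side of the clusters, outside any cluster, there were 179 regions in 6.5 Mb, or 27.5 per Mb (23.7 to 31.9), and the clusters had 0.341 times that density (0.269 to 0.431). All 7 clusters were sparser than their own flanks, and the intervals of cluster and flank did not meet for 3 of them. Cluster 4 is an example: 8.89 regions per Mb inside, against 44 per Mb beside it (32.0 to 59.1). Cluster 7, whose flank lies on 1 side only because the chromosome ends there, had 15.5 per Mb against 48 per Mb (30.8 to 71.4). Cluster 5 had 0 inside against 28 regions in 1 Mb of flank. Clusters 1, 2, 3 and 6 had overlapping intervals, with flanks of 12, 39, 10 and 22 regions per Mb. Overlap alone does not show equal densities. The flank of cluster 3 on its centromeric side holds no region, and its 10 regions all lie on the other side.

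**Figure D2:**
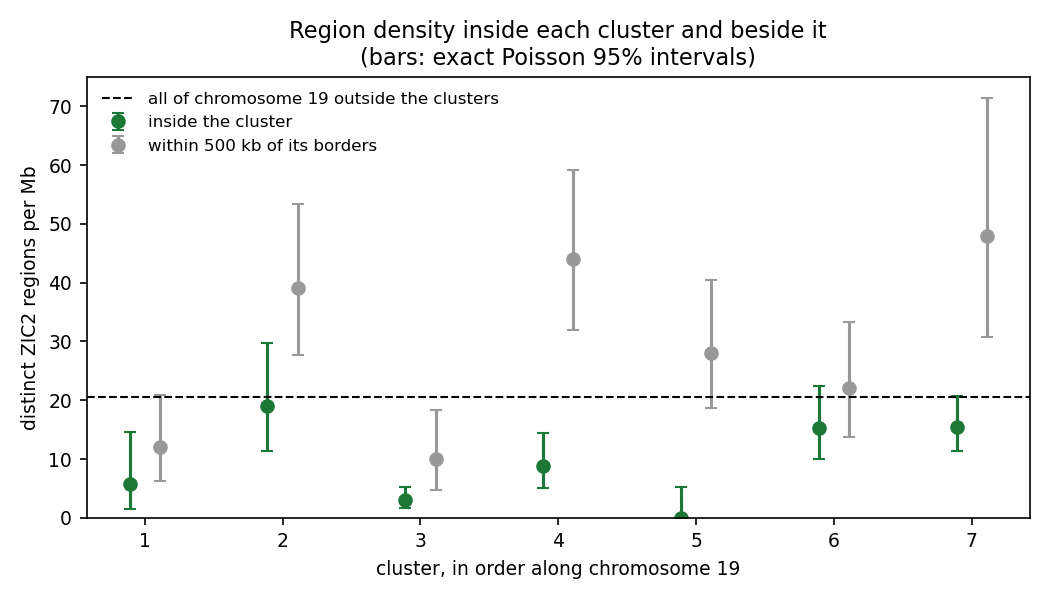
Distinct ZIC2 regions per Mb (y axis) for each cluster (green) and for the 500 kb on either side of it (grey), with exact Poisson 95% intervals. The dashed line is the rest of chromosome 19 at 20.5 per Mb. Each green point lies below its grey neighbour.

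Several clusters held long empty stretches. How much of the low density these stretches account for was not tested. Cluster 5 lies almost whole inside one that runs from 44259359 to 45004227 (745 kb), between a KO-only region and a shared region that both lie outside the cluster. Cluster 3 holds stretches from 22035028 to 23257816 (1223 kb), 20479127 to 21512166 (1033 kb) and 23433336 to 24258085 (825 kb), and in cluster 7 no region lay between 57107660 and 57751802 (644 kb). Of the 10 longest empty stretches of chromosome 19, 5 lie mostly inside a cluster, where the clusters span 13.1 Mb and the rest 46 Mb. The 5 are the stretches just named, most of them in cluster 3. The longest of all, from 24258861 to 28284071 (4025 kb), starts at the last region of cluster 3, on its centromeric side. How much of that stretch could yield a called region was not measured. With that stretch left out of the length of the rest, the rest was 2.39 times as dense as the clusters (1.98 to 2.91).

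The same unevenness showed in bins of 100 kb. In the clusters, 70 of 131 bins (53.4%) held no region, and the mean was 0.939 ± 1.32 regions per bin (SD over bins). On the rest of the chromosome without its longest empty stretch, 111 of 421 bins (26.4%) were empty, with a mean of 2.24 ± 2.22. Bins with 4 or more regions made up 5.34% of the bins in clusters and 24.5% of the others. The variance of the counts was 1.85 times their mean in the clusters and 2.21 times outside. Independent regions at 1 even rate would give a ratio near 1, so the Poisson intervals of these pooled sets are likely too narrow. Within single clusters the ratio was 1.08 in cluster 1, 1.19 in cluster 3, 1.04 in cluster 4 and 1.24 in cluster 6. It was 1.81 in cluster 2 and 1.82 in cluster 7. Each of these ratios rests on few bins, from 7 in cluster 1 to 43 in cluster 3.

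**Figure D3:**
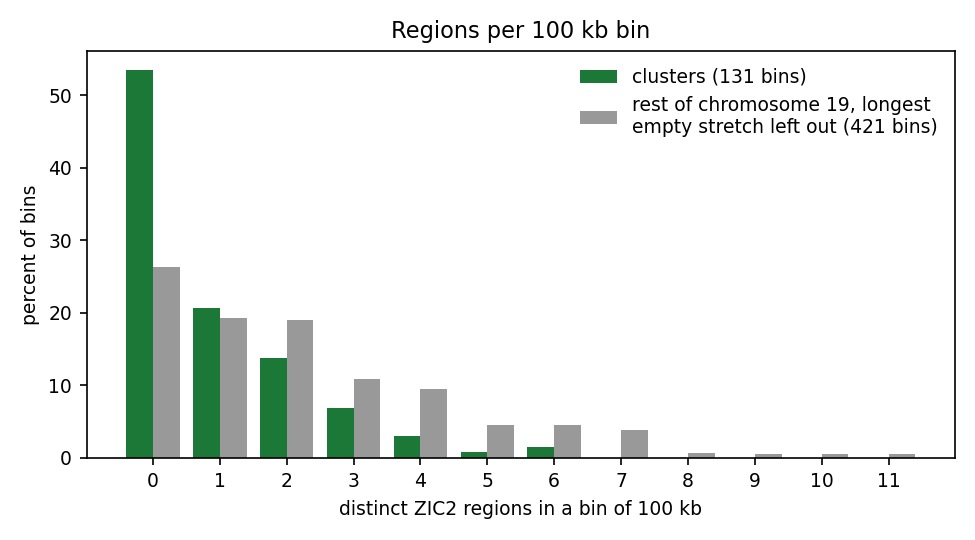
Share of 100 kb bins (y axis, percent) by the number of distinct ZIC2 regions in them (x axis), for the clusters (green) and the rest of chromosome 19 without its longest empty stretch (grey). Empty bins make up 53.4% in the clusters and 26.4% outside, and no cluster bin holds more than 6 regions.

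By class, the clusters held more regions called in WT alone than any other kind. Overlapping regions of the lists had identical edges in all 4120 cases, so a shared region is 1 interval found in both lists. The clusters held 66 WT-only regions (53.7% of 123, exact Clopper-Pearson 95% interval 44.4 to 62.7), against 55.0% of all distinct regions of the study. They held 36 shared regions (29.3%, 21.4 to 38.1), against 25.6% of all, and 21 KO-only regions (17.1%, 10.9 to 24.9), against 19.4% of all. In each class the share in the clusters lies near the share over the whole study.

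Beside the rest of their own chromosome the clusters differed in class. Outside the clusters, shared regions made up 40.4% (37.2 to 43.6) and WT-only regions 40.8% (37.6 to 44.0) of the 944 on chromosome 19. Of the 102 WT regions in the clusters, 36 were in the KO list too, or 35.3% (26.1 to 45.4), against 49.7% (46.1 to 53.3) on the rest of the chromosome and 30.5% (29.7 to 31.4) on other chromosomes. Over the whole study 31.8% of WT regions were called in KO. The difference between the clusters and the rest of the chromosome was -14.4 percentage points (Newcombe 95% interval -23.7 to -4.17), and that between the clusters and the other chromosomes was 4.75 points (-3.88 to 14.4), an interval that includes 0. Against the flanks it was -12.4 points (-24.1 to 0.0914), which also includes 0. These intervals again treat regions as independent, and no test was made.

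The KO list was thinner than the WT list in the clusters, with 57 KO regions for 102 WT regions, or 55.9 per 100. The ratio was 73.0 per 100 on the rest of chromosome 19 and 54.6 per 100 on other chromosomes. Per Mb, the clusters held 7.79 WT regions (6.35 to 9.45) and 4.35 KO regions (3.30 to 5.64). Set against the rest of chromosome 19, they had 0.468 times its density of WT regions (0.377 to 0.576) and 0.358 times its density of KO regions (0.268 to 0.471). By class, the clusters had 0.332 times the density of shared regions (0.229 to 0.468), 0.602 times that of WT-only regions (0.456 to 0.783) and 0.414 times that of KO-only regions (0.250 to 0.653). Shared regions were thus the class most thinned out, though the intervals of the classes overlap.

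The share of KO-only regions in the clusters could not be told from that elsewhere on the chromosome. Of the 57 KO regions there, 21 were not called in WT, which is 36.8% (24.4 to 50.7), against 31.8% (28.0 to 35.9) on the rest of the chromosome, 44.1% on other chromosomes and 43.0% over the study. The clusters held 3.14 WT-only regions for each KO-only region, the rest of the chromosome 2.16 and other chromosomes 2.89. For that percentage, the clusters minus the rest of the chromosome gave 5.00 points (-7.00 to 18.5), an interval that includes 0.

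Among the clusters, the share of WT regions also called in KO went from 0 of 3 in cluster 1 and 2 of 10 in cluster 3 (20.0%, 2.52 to 55.6) to 17 of 37 in cluster 7 (45.9%, 29.5 to 63.1). It was 5 of 17 in cluster 2 (29.4%), 7 of 22 in cluster 6 (31.8%) and 5 of 13 in cluster 4 (38.5%). All these intervals overlap, and differences between single clusters were not tested. Short-arm clusters had 7 of 30 (23.3%, 9.93 to 42.3) and long-arm clusters 29 of 72 (40.3%, 28.9 to 52.5). Each of the 6 clusters with any region held more WT-only than KO-only regions.

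**Figure D4:**
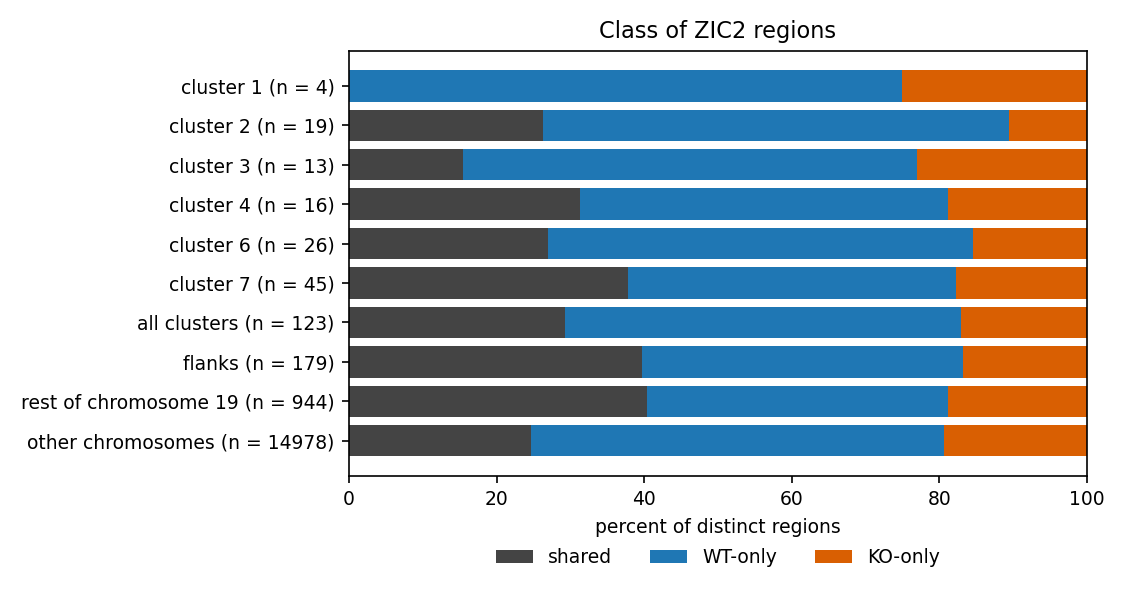
Percent of distinct regions (x axis) that were shared (dark grey), WT-only (blue) or KO-only (orange), for each cluster with regions, all clusters, their 500 kb flanks, the rest of chromosome 19 and all other chromosomes. The clusters together (29.3% shared) lie between the other chromosomes (24.6%) and the rest of chromosome 19 (40.4%).

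Regions in the clusters had a width between that of the rest of chromosome 19 and that of other chromosomes. Their median width was 266 bp (order-statistic 95% interval 237 to 307), against 326 bp (297 to 345) on the rest of chromosome 19 and 231 bp (227 to 235) on other chromosomes. The interval of the clusters overlaps that of the rest and lies above that of the other chromosomes. Regions over 600 bp made up 13.8% in the clusters (17 of 123), 20.7% outside on chromosome 19 and 11.4% on other chromosomes. Regions at the smallest width in the lists, 150 bp, made up 20.3% (25 of 123), 17.4% and 31.3%.

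Within a class, widths in the clusters were close to those outside. Shared regions had a median of 480.5 bp in the clusters (315 to 583) and 509 bp outside (476 to 540), WT-only regions 223 bp (169 to 266) and 216 bp (201 to 233), and KO-only regions 250 bp (155 to 452) and 206 bp (174 to 252). The median of each class in the clusters has an interval that overlaps that of the same class outside. None of the 36 shared regions in the clusters had the smallest width, against 21 of the 66 WT-only and 4 of the 21 KO-only regions. By cluster, the median width was 366.5 bp in cluster 1, over 4 regions, 365.5 bp in cluster 6 (228 to 560) and 212 bp in cluster 4 (150 to 331), and the intervals of clusters 4 and 6 overlap.

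**Figure D5:**
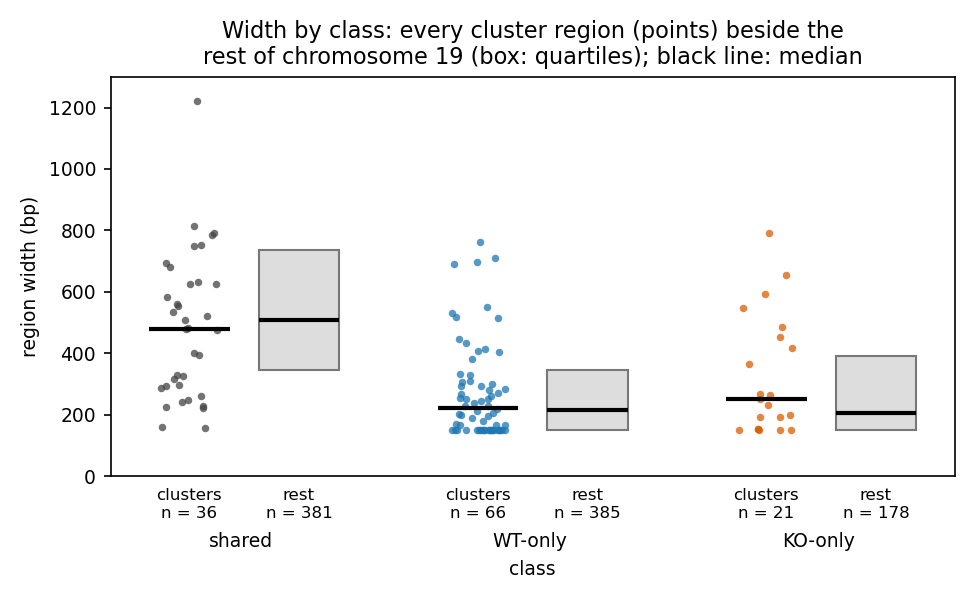
Width in bp (y axis) of every region in the clusters (points) by class, beside the quartiles of the rest of chromosome 19 (grey boxes), with black lines at the medians. Shared regions are the widest class in both sets, with medians of 480.5 bp in the clusters and 509 bp outside.

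Since wide regions are more often shared, the share of WT regions also called in KO was read within widths. At 150 bp it was 0 of 21 in the clusters (upper limit 16.1%) and 1 of 107 on the rest of the chromosome. From 151 to 300 bp it was 29.7% (11 of 37) and 29.3% (65 of 222). From 301 to 600 bp it was 48.3% (14 of 29, 29.4 to 67.5) and 64.4% (168 of 261, 58.2 to 70.2), and above 600 bp 73.3% (11 of 15, 44.9 to 92.2) and 83.5% (147 of 176, 77.2 to 88.7). In each of these bands the intervals of the clusters and of the rest of the chromosome overlap, and whether the difference varies with width was not tested. A shared region has 1 width for both lists, since its edges are identical in them. How edges were set is not known, so width cannot be read as a value of either genotype. Whether that step makes shared regions wider was not tested.

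Surroundings were read the same way, by the number of other WT regions within 500 kb. Its median was 14 for WT regions in the clusters, 23 on the rest of chromosome 19 and 7 on other chromosomes. With 5 to 9 such neighbours, 4 of 17 WT regions in the clusters were called in KO (23.5%, 6.81 to 49.9), against 34 of 58 on the rest of the chromosome (58.6%, 44.9 to 71.4). With 10 to 14 it was 15 of 24 (62.5%, 40.6 to 81.2) against 29 of 51 (56.9%, 42.2 to 70.7). With 15 or more it was 16 of 50 (32.0%, 19.5 to 46.7) against 311 of 635 (49.0%, 45.0 to 52.9), and with at most 4 it was 1 of 11 against 7 of 22. The share in the clusters was lower in 3 of these 4 bands and higher in 1, and the part of width and density in the difference was not tested.

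Regions in the clusters stood further apart. The median distance to the nearest other region was 19.8 kb (quartiles 5.22 and 43.7 kb), against 8.79 kb (1.44 and 22.5 kb) on the rest of the chromosome. Of the 123, 31 (25.2%) had another region within 5 kb and 96 (78.0%) within 50 kb, against 39.4% and 91.5% outside. Cluster 2 was the most tightly spaced, with a median of 6.49 kb, and cluster 3 the least, with 92.3 kb. The nearest region was of the same class for 40 of 66 WT-only regions (60.6%), 15 of 36 shared regions (41.7%) and 2 of 21 KO-only regions (9.52%), against 42.6%, 35.7% and 16.9% outside. In that order, the classes made up 53.7%, 29.3% and 17.1% of the regions in the clusters, and 40.8%, 40.4% and 18.9% outside. Whether neighbours were of 1 class more often than these shares would give was not tested.

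The 31 regions with a close neighbour formed 16 pairs within 5 kb, of which 9 were under 500 bp apart. The most frequent pair, with 6 cases, joined a shared and a WT-only region, and the shared one was the wider in all 6. An example is the pair in cluster 7 at 58951084 to 58951295 (WT-only, 212 bp) and 58951470 to 58951865 (shared, 396 bp), 174 bp apart. There were 5 pairs of WT-only regions, such as 53897644 to 53898046 and 53898198 to 53898366 in cluster 6, 151 bp apart. These are the 2 most frequent classes, with WT-only at 53.7% and shared at 29.3% of the regions in the clusters. Shared regions were also wider there as a class (median 480.5 bp, against 223 bp for WT-only). Whether the pairs departed from these shares and widths was not tested. The 1 pair of shared regions lay in cluster 7, at 57791142 to 57791427 and 57791585 to 57792061. A WT-only and a KO-only region were paired in 3 places: 12034579 to 12034728 (KO-only) with 12035747 to 12035942 (WT-only) in cluster 2, 24258086 to 24258235 (WT-only) with 24258711 to 24258860 (KO-only) in cluster 3, and 36630696 to 36630945 (KO-only) with 36632108 to 36632438 (WT-only) in cluster 4. At these places the knockout list holds a region beside, not on, the one of the wild-type list. The last pair joined a shared and a KO-only region, at 53445836 to 53446468 (633 bp) and 53449345 to 53449938 (594 bp) in cluster 6.

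Of the 10 widest regions, 7 were in cluster 7 and 3 in cluster 6, which hold 45 and 26 of the 123 regions. By class, 6 were shared, 3 WT-only and 1 KO-only. The widest was the last ZIC2 region of the chromosome, shared, from 59084081 to 59085302 (1222 bp). Next came a shared region of cluster 6 from 53030082 to 53030895 (814 bp), then 2 regions of 793 bp in cluster 7, the shared one from 59030873 to 59031665 and the KO-only one from 56825917 to 56826709. The latter was the widest KO-only region, followed by 58906956 to 58907609 (654 bp) in the same cluster. The widest WT-only regions were 58987037 to 58987799 (763 bp) in cluster 7, 53193728 to 53194438 (711 bp) in cluster 6 and 56652030 to 56652725 (696 bp) in cluster 7. A further pair of shared regions of cluster 7 was among the 10, 57874323 to 57875107 (785 bp) and 57900987 to 57901736 (750 bp), and 1 of cluster 6, 53496709 to 53497460 (752 bp).

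The widest region of each class was smaller in the other clusters. Clusters 1, 2, 3 and 4 also hold fewer regions (4, 19, 13 and 16), and a maximum tends to grow with the number of regions. In cluster 1 they were 9649188 to 9649619 (WT-only, 432 bp) and 9879053 to 9879539 (KO-only, 487 bp), with 0 shared regions. In cluster 2 they were 11707992 to 11708686 (shared, 695 bp), 11908894 to 11909443 (WT-only, 550 bp) and 11805744 to 11806012 (KO-only, 269 bp). In cluster 3 the shared 20478644 to 20479126 (483 bp) was followed by 23257817 to 23258180 (KO-only, 364 bp) and 20277844 to 20278125 (WT-only, 282 bp). In cluster 4 they were 36705395 to 36706076 (shared, 682 bp), 36632108 to 36632438 (WT-only, 331 bp) and 36630696 to 36630945 (KO-only, 250 bp). The widest KO-only region of cluster 6 was 53449345 to 53449938 (594 bp).

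Classes were not mixed evenly along cluster 7. The following stretches were chosen after their values were seen, so the counts are a description only. From 56632603 to 57107659 there were 6 regions, of which 4 were WT-only, 2 KO-only and 0 shared. From 57751803 to 57946687 (195 kb), 8 of 9 regions were shared and 1 was WT-only, with a median width of 329 bp. From 58090353 to 58459347 (369 kb), 0 of 10 were shared, 8 were WT-only and 2 KO-only, with a median of 164.5 bp. From 58545276 to 58874330, 2 of 9 were shared, 5 WT-only and 2 KO-only. In the last 193 kb, from 58892442 to 59085302, 7 of 11 were shared, with 2 WT-only and 2 KO-only, a median of 452 bp and the last 3 regions of the chromosome all shared.

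Runs of neighbouring regions of 1 class, at least 3 long, were WT-only or shared in all cases. WT-only regions made up 53.7% of the regions in the clusters, shared regions 29.3% and KO-only regions 17.1%. A rarer class forms fewer runs by its share alone, and whether runs departed from these shares was not tested. The longest WT-only runs, of 5 regions each, were in cluster 6 from 52391207 to 52634000 (243 kb), at its start, and from 53700125 to 53935283 (235 kb), at its end, so that the 7 shared and 4 KO-only regions of that cluster all lay between them. Cluster 3 had a WT-only run of 4 regions from 21512167 to 22035027 (523 kb). The longest shared run, of 5, was in cluster 7 from 57831458 to 57946687 (115 kb).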

How the data were processed

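The authors' deposited files hold 1 list of ZIC2 regions per genotype, with chromosome, start and end and no other values, so the unit of every measurement is a position in bp. Per the submitters' processing notes, Bowtie2, Picard and hg19 were used. For the peak caller, its threshold, the use of the IgG libraries, the combination of replicates and the treatment of reads that align to several places, details were not given in the sources used here. The IgG libraries were not analysed here.

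The lists were read with Python 3.11.15, pandas 2.3.3, numpy 2.4.6, scipy 1.17.1 and statsmodels 0.14.6, and starts were counted from 1. Regions that overlapped by at least 1 bp counted as shared. The 7 cluster intervals were set by position, without use of the called regions. Earlier results of these data were known when the intervals, the lists and the bands were chosen. Regions were named by a rule: the widest of each class in each cluster, the 10 widest over all clusters, and those within 5 kb of another; the stretches, runs and empty stretches were named after their values were seen. Densities have exact Poisson, shares exact Clopper-Pearson and medians order-statistic 95% intervals, which cover counting error only. Ratios of densities have the exact conditional interval and differences of shares the Newcombe interval. No test was made, since regions of 1 list are not replicates. Counting was tested on simulated regions with known classes.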

Additional observations from a re-analysis of the deposited data

How the results depend on the processing

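Of 65 values from the alternatives, 56 stayed within the 95% interval of the reported value and 9 did not. Some of the 56 could not move, so their number does not measure stability. Leaving out cluster 5, which holds 0 regions, cannot change the classes or the median width. Counting regions with edges within 1 kb as shared cannot change the number of KO regions per 100 WT regions. Without cluster 3 the density was 12.5 regions per Mb and the rest of chromosome 19 was 1.64 times as dense as the clusters, and without cluster 7 these were 7.65 per Mb and 2.68 times. With only regions wider than 150 bp the density was 7.48 per Mb and the median width 312 bp. With only regions of 235 bp or more, the median of the study, they were 5.57 per Mb and 418 bp, and 50.0% of WT regions in the clusters were called in KO, against 67.7% on the rest of the chromosome. Fewer regions enter these settings by construction. The rest of chromosome 19 stayed denser than the clusters (1.64 to 2.68 times) and its WT regions were more often called in KO in all settings run. Borders moved by 100 kb outward gave 10.9 regions per Mb in the clusters, with the rest of the chromosome 1.87 times as dense, and 38.8% of WT regions called in KO. Requiring 50% reciprocal overlap changed nothing, since shared regions have identical edges, and so tests nothing. No paired analysis was possible because both replicates of a genotype stand behind 1 list, and no replicate could be left out. Positions against genes, and sequences, were not analysed here for want of a genome of the same build. Depth is unknown, so how many weakly bound regions went uncalled cannot be said.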
